A study of Homo sapiens with 6 samples.

Results

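Genes of the spliceosome and its regulators were compared between T24/THP, a drug-resistant bladder carcinoma line, and T24, the parental line. The genes were chosen by name: the SNRP, SF3A, SF3B, SRSF, LSM, PRPF, HNRNP and U2AF symbols of the annotated array table, without 8 pseudogene symbols and 1 antisense symbol. They were 75 of the 24930 genes tested. T24/THP came from T24 that was given pirarubicin, an anthracycline drug used against bladder tumours, for 24 h at a time. The first dose was 5 ng/ml and the last 1000 ng/ml, the selection took over 6 months, and a dose every 2 to 3 weeks upheld the resistance. T24 was grown in parallel. Each line was measured on 3 Affymetrix whole-transcript arrays of total RNA, which the labels give as biological replicates. Each line was derived once, so the tests cover how samples of the same cultures vary, not how repeated selections would. The labels do not say how long before extraction the last dose was given.

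The spliceosome removes introns from pre-mRNA. Its particles are built on small nuclear RNAs that carry a ring of Sm or LSM proteins: U1 reads the start of an intron, U2 its branch point, and the U4/U6.U5 tri-snRNP then joins and is remodelled into the active enzyme. SR proteins and hnRNPs bind the transcript itself and steer which splice sites are used, SR proteins mostly by promoting exons and hnRNPs often by hiding them. Most of these genes are active in nearly every cell type, and many SR genes limit their own output by splicing to forms that are degraded.

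Values are on the log2 intensity scale, with 1 value on each array for a transcript cluster, the set of probes along a gene. A gene is said to have risen or fallen where its difference, T24/THP minus T24, passed limma's moderated test at an adjusted p under 0.05. A difference of at least 2-fold in addition, an absolute log2 difference of at least 1, is named as such. A cluster sums all isoforms of a gene, so the values measure the transcripts of the splicing genes and not splicing itself. In cultures measured in bulk, fewer cells that express a gene and less of its RNA per cell cannot be told apart.

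Most of the splicing genes were lower in T24/THP, and SRSF5 was the main gene to rise. The Sm ring had the lowest median difference of any class, at −0.86. The U2AF, U2 and hnRNP genes followed with medians of −0.70, −0.67 and −0.67. Of the 75 genes 52 fell and 7 rose, where 18% of all genes tested fell and 15.1% rose. Falls of at least 2-fold were seen for 11 members (3.77% of all genes) and a rise of that size for 1, SRSF5 (2.85% of all genes). The median difference over the members was −0.52, against 0.01 over all genes tested. The largest fall was that of HNRNPAB at −1.76 and the largest rise that of SRSF5 at 1.84. The remaining 16 genes did not pass.

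The shift of the members was seen on every T24/THP array. The median over the members of the value minus the gene's T24 mean was −0.57, −0.48 and −0.49 on the T24/THP arrays, against −0.06, 0.05 and 0.06 on the T24 arrays. The same median over all genes tested was 0.01, −0.00 and 0.01 on the T24/THP arrays. The 3 arrays of each line did not overlap for 54 members that were lower in T24/THP and 7 that were higher, where 23.2% and 22% of all genes lay apart in those directions.

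**Figure D1:**
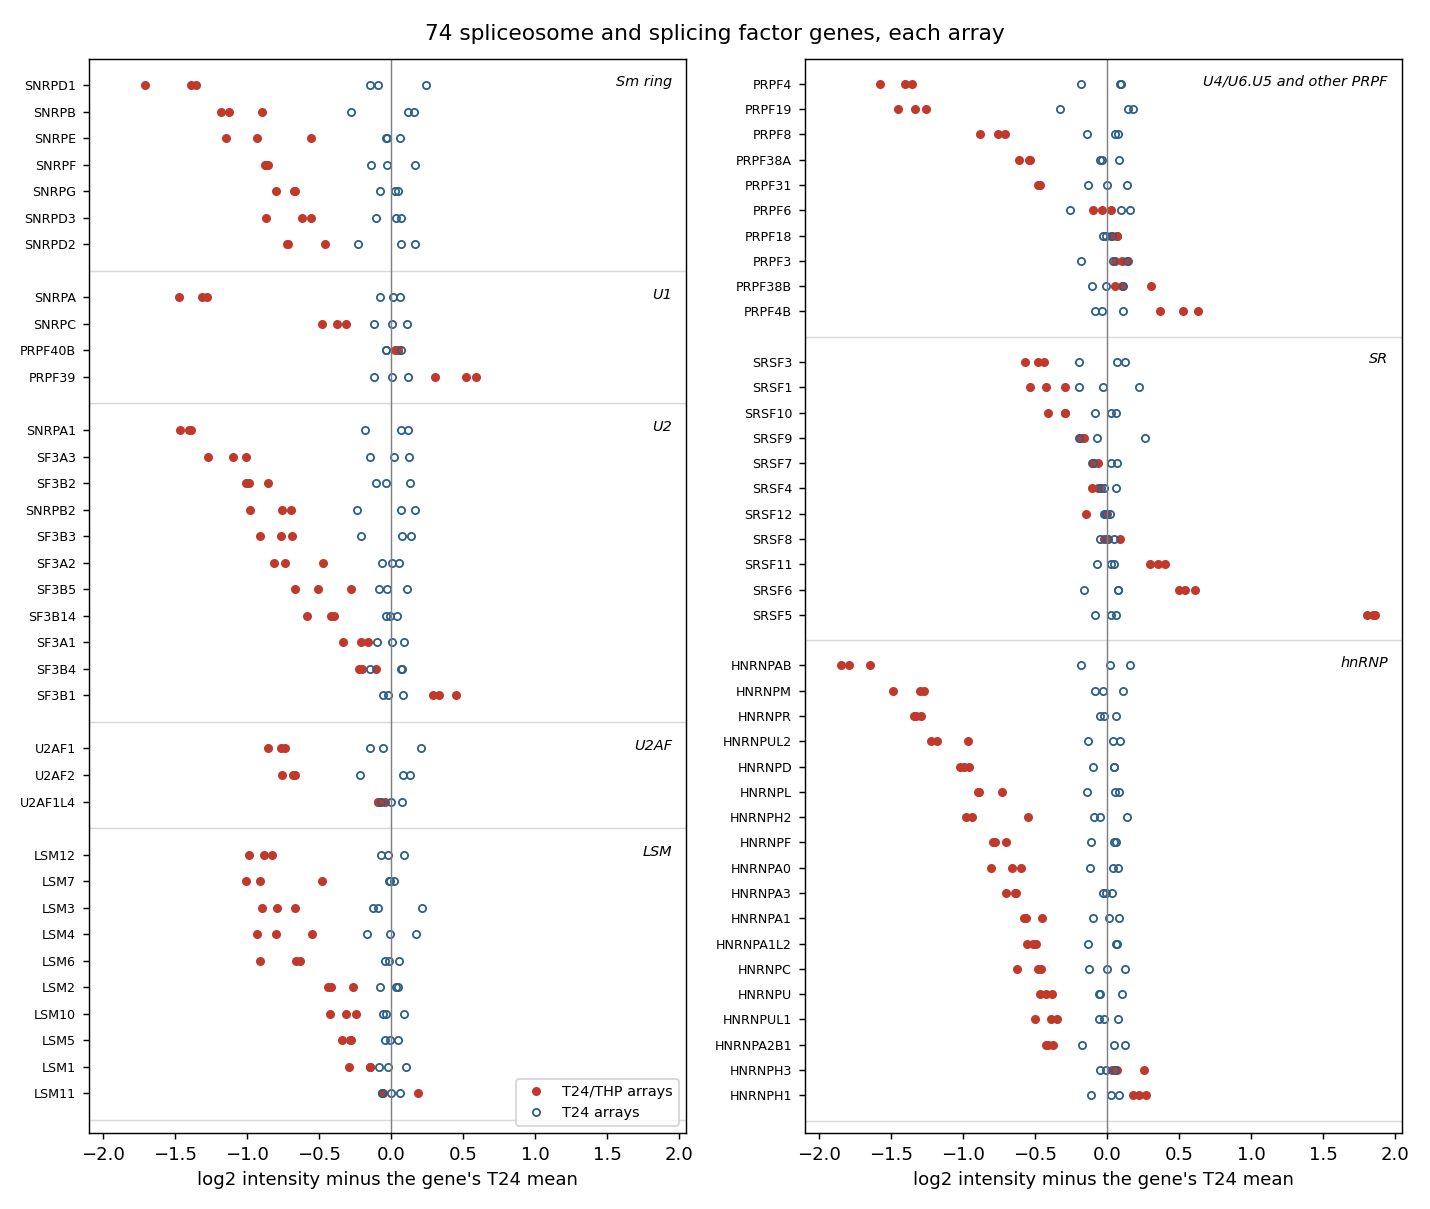
Log2 intensity minus the gene's T24 mean (horizontal axis) for 74 of the 75 genes, by class, with 3 T24/THP arrays as filled points and 3 T24 arrays as open points. The T24/THP points of all 7 Sm ring genes and of most hnRNP genes lie left of the T24 points, whereas those of SRSF5 lie near 1.84.

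Bright genes leaned lower as a whole, so the members were also set against genes of like level. Above the background range in at least 1 line lay 71 members, of which 51 fell and 7 rose, against 37.4% and 26.8% of 10519 such genes. The 2-fold differences, 11 lower and 1 higher, compare with 8.8% and 6.45% of those genes. Among genes with a mean level of 12 or more, 16 of 18 members fell (88.9%), against 44.5% of 794 genes, and the median difference was −0.61 for the members and −0.16 for all genes there. Between 10 and 12 the median was −0.76 for the members and −0.15 for all genes. Between 8 and 10, the range with the smallest gap, 8 of 16 members fell (50%), against 41.1% of 2773 genes, with medians of −0.35 for the members and −0.12 for all genes. Between 6 and 8 the median was −0.47 for the members and −0.07 for all genes. In each of 5 level ranges the members' median was lower than that of all genes.

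**Figure D2:**
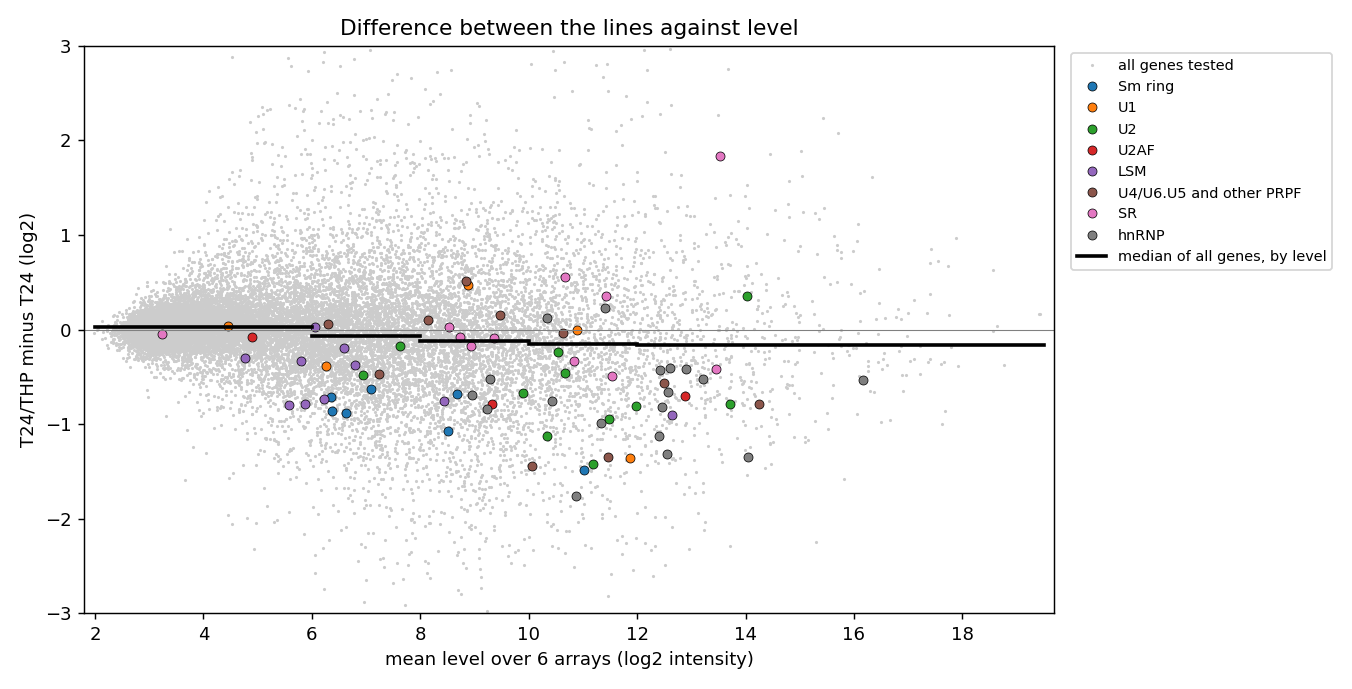
Difference between the lines, T24/THP minus T24 in log2 units, against the mean level over 6 arrays in log2 intensity, with all genes tested in grey, members coloured by class and the median of all genes per level range as black lines. Most members lie under the black lines, SRSF5 stands alone at 1.84, and 90 genes that differ by more than 3 lie outside the axis.

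The windows of 250 bases before the annotated start site are shown for 4 members from opposite ends of this pattern: SNRPA1 and SF3A3, the U2 genes with the largest falls, HNRNPAB, the member with the largest fall, and SRSF5, the member with the largest rise. They are taken from RefSeq, build GRCh38.p14, at chr15:101295249-101295498 (minus strand), chr1:37990023-37990272 (minus strand), chr5:178204283-178204532 (plus strand) and chr14:69766892-69767141 (plus strand). Each is read 5′ to 3′ along the gene, and capitals mark the letters of an ETS element (CCGGAAGT, or ACTTCCGG on the other strand) or a CCAAT box (CCAAT, or ATTGG on the other strand).
SNRPA1: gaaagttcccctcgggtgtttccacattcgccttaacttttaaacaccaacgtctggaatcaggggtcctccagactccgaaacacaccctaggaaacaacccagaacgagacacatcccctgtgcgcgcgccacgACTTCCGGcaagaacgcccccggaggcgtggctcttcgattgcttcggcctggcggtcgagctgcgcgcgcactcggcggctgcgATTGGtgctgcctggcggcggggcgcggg
SF3A3: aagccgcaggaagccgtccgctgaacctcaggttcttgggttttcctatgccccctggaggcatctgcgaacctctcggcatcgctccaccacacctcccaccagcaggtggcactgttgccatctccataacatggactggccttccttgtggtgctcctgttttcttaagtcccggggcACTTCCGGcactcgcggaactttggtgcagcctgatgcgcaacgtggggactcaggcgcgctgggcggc
HNRNPAB: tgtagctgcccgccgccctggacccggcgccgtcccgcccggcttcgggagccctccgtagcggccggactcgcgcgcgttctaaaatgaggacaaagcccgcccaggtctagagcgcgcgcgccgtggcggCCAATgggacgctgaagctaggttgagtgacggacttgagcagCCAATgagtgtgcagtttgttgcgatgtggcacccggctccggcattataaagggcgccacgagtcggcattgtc
SRSF5: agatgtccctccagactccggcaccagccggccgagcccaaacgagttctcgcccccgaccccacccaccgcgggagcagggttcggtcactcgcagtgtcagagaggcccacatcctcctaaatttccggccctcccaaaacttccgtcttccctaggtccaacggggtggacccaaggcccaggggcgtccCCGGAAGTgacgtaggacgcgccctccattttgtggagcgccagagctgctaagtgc

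SNRPA1 held ETS letters at −114 and CCAAT letters at −29 from the start site, SF3A3 held ETS letters at −69, HNRNPAB had CCAAT boxes at −118 and −75, and SRSF5 held ETS letters at −57. Promoter windows were found for 67 of the 75 members. ETS letters stood in 14 of the 67 (20.9%), against 3.64% of all 27305 promoters and 4.94% of those of genes tested. They stood in 7 of 10 windows of U2 genes and in 7 of 57 windows of the other members. CCAAT letters stood in 29 of 67 (43.3%), against 33.0% of all promoters and 34.4% of those of genes tested. By class they ranged from 0 of 3 U2AF and 2 of 11 SR windows to 12 of 17 hnRNP windows. ETS letters stood in 10 of 48 windows of genes that fell, 1 of 6 of those that rose and 3 of 13 of those that did not pass. For CCAAT letters these were 24 of 48, 1 of 6 and 4 of 13. E2F letters (TTTGGCGC, TTTCCCGC or TTTCGCGC) were found in 2 of 67 members and 2.38% of all promoters, the NRF1 motif in 1 and 1.13%, E-box letters (CACGTG) in 6 and 6.49%, and YY1 letters (AAGATGGCG) in 0 and 0.641%, on both strands. None of the motifs contains another. These are matches of letters and not measured sites. The promoters compared differ in activity: 14411 of the 24930 genes tested lay in the background range in both lines, against 4 of the 75 members. Shares for promoters of genes of like level were not computed.

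The Sm ring, the collar of 7 proteins that most spliceosomal small nuclear RNAs wear, fell as a whole. All 7 genes fell, against 37.4% of genes above the background range in at least 1 line, with a median difference of −0.86. SNRPD1 had 10.06, 10.38 and 10.42 log2 units in T24/THP, against 11.62, 12.01 and 11.68 in T24. Every T24/THP value lay under every T24 value, and the difference was −1.48 ± 0.132 (SE), or 2.80-fold lower, with an adjusted p of 0.000102. SNRPB, which gives rise to the B and B′ proteins, had 7.86, 8.14 and 7.91 in T24/THP, against 8.76, 9.16 and 9.20 in T24. It was 2.10-fold lower, with an adjusted p of 0.000512. SNRPE, SNRPF, SNRPG, SNRPD3 and SNRPD2 fell as well, with differences of −0.88, −0.86, −0.71, −0.68 and −0.63. SNRPE varied most among them in T24/THP, with values of 5.91, 6.13 and 6.51 there and 7.03, 7.12 and 7.04 in T24.

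Proteins of the U1 particle and its partners split. SNRPA, the A protein of U1, which binds a stem-loop of U1 RNA, had 11.08, 11.28 and 11.24 in T24/THP, against 12.48, 12.57 and 12.62 in T24. The lines lay apart by more than 1 log2 unit, with a difference of −1.36 ± 0.073 (SE), or 2.56-fold lower, and an adjusted p of 1.12e-05. SNRPC, the C protein, which steadies the pairing with the intron's start, fell by 0.39. PRPF39, a U1-associated protein, rose instead, with 9.16, 8.95 and 9.23 in T24/THP, against 8.65, 8.52 and 8.76 in T24 (difference 0.47, adjusted p of 0.00648). PRPF40B, a further U1 partner, was within the background range in both lines.

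Of the 11 U2 genes 9 fell (81.8%, against 37.4% of genes above the background range in at least 1 line) and 1, SF3B1, rose. SNRPA1, the A′ protein of the particle's core, had 10.43, 10.51 and 10.49 in T24/THP, against 11.72, 12.02 and 11.97 in T24. It was 2.68-fold lower, with an adjusted p of 1.79e-05. Its partner SNRPB2, the B″ protein, fell by 0.81. SF3A3, a subunit of the SF3a complex, had 9.64, 9.90 and 9.81 in T24/THP, against 10.77, 11.03 and 10.93 in T24. It was 2.18-fold lower (adjusted p of 8.15e-05). The other SF3a subunits, SF3A2 and SF3A1, had differences of −0.67 and −0.24. SF3A1 passed narrowly (adjusted p of 0.044), and it missed the test when any array other than T24 replicate 3 was left out (0.056 to 0.143). It also missed once a loess curve of difference on level was subtracted (difference −0.11, adjusted p of 0.361).

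Within SF3b, the U2 complex that holds the branch point, the subunits went apart. SF3B1, its scaffold and a gene often mutated in leukaemia, had 14.18, 14.14 and 14.30 in T24/THP, against 13.93, 13.79 and 13.83 in T24. All T24/THP values were above all T24 values, by a difference of 0.36 ± 0.0687 (SE) with an adjusted p of 0.00499. SF3B2 and SF3B3, which pack against it, fell with differences of −0.95 and −0.79, and so did the small subunits SF3B5 at −0.48 and SF3B6 (SF3B14 in the array's annotation) at −0.46. SF3B4 was at 7.54 ± 0.06 in T24/THP and 7.72 ± 0.13 in T24 (SD, n = 3 each), and its adjusted p was 0.139, or 0.0283 without T24 replicate 1.

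Both subunits of U2AF, which finds the end of the intron for U2, fell. U2AF1, which reads the AG at that end, had 8.87, 8.99 and 8.96 in T24/THP, against 9.57, 9.67 and 9.93 in T24 (difference −0.78, adjusted p of 0.000517). U2AF2, which binds the pyrimidine tract, had 12.47, 12.56 and 12.55 in T24/THP, against 13.02, 13.31 and 13.36 in T24 (difference −0.70, adjusted p of 0.00093). The paralog U2AF1L4 was within the background range in both lines, with a difference of −0.07.

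**Figure D3:**
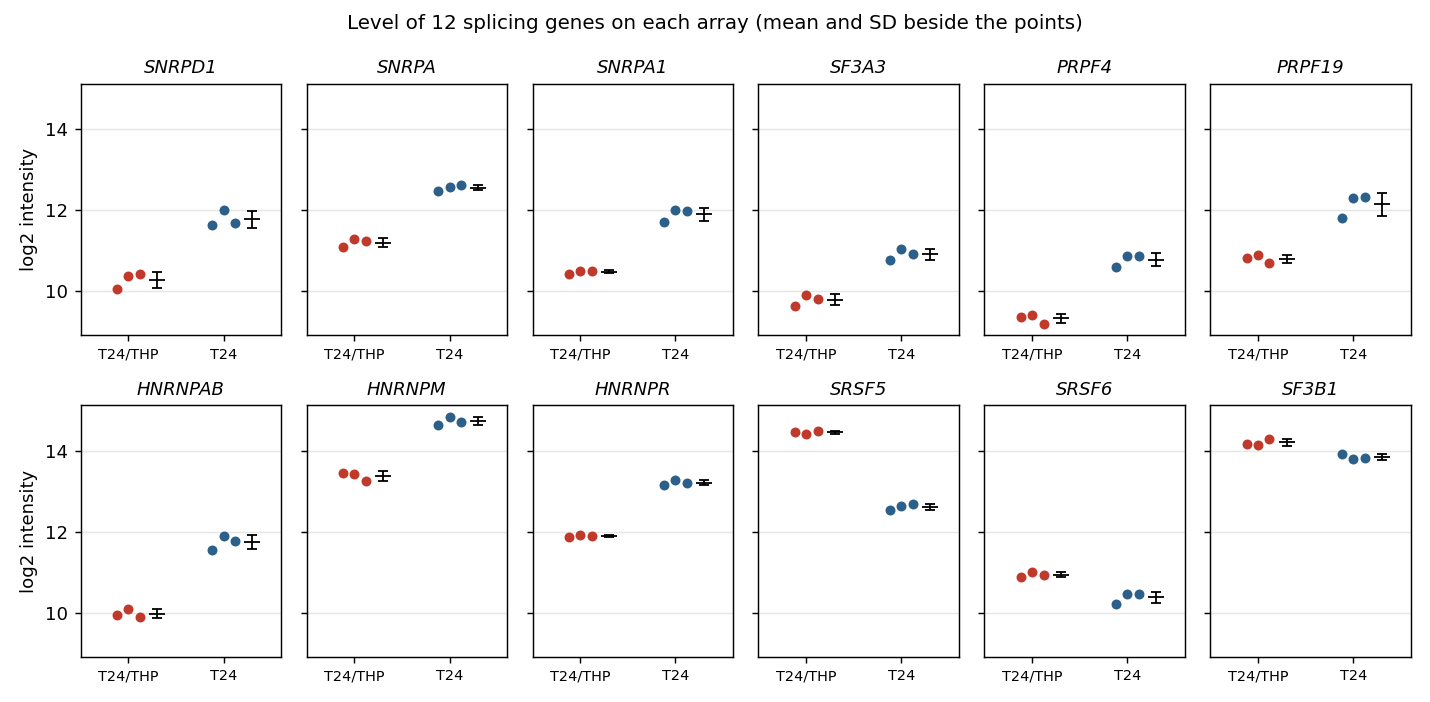
Log2 intensity of 12 of the genes on each array, T24/THP at the left and T24 at the right of each panel, with the mean and SD beside the points (n = 3 each). The lines do not overlap in any panel. SRSF5, SRSF6 and SF3B1 are higher in T24/THP and the other 9 lower.

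Of the 10 LSM genes 8 fell (80%, against 37.4% of genes above the background range in at least 1 line) and none by 2-fold. The measured genes for the ring of U6 RNA, LSM2 to LSM7, all passed as lower, and those above the background range in both lines had differences of −0.76 (LSM4), −0.73 (LSM6) and −0.37 (LSM2). LSM4 had 8.01, 8.26 and 7.87 in T24/THP, against 8.64, 8.80 and 8.98 in T24 (adjusted p of 0.00198). LSM3 and LSM7 lay in the background range in T24/THP and were at least 1.69-fold and at least 1.38-fold lower, and LSM5 lay in that range in both lines. LSM12, an LSM-domain protein outside the ring, had a difference of −0.90, with 12.27, 12.21 and 12.10 in T24/THP, against 13.07, 13.18 and 13.02 in T24. LSM10, a part of the U7 particle that processes histone mRNA, fell by 0.33. Its U7 partner LSM11 was at 6.06 ± 0.14 in T24/THP and 6.04 ± 0.06 in T24, and LSM1, of the cytoplasmic ring for mRNA decay, was at 6.50 ± 0.09 in T24/THP and 6.69 ± 0.09 in T24 (SD, n = 3 each). Neither passed, with adjusted p of 0.875 and 0.0856, although LSM1 passed with quantile normalization (0.0362). For LSM2 the brightest cluster, on an alternate haplotype of chromosome 6, was used. Its other 5 clusters, identical to each other, lay at 4.97 to 5.20 in T24/THP and 5.34 to 5.49 in T24. These values, which include the cluster on the chromosome itself, are within the background range in both lines.

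Proteins of the tri-snRNP and of the activation step, named PRPF after yeast mutants, ranged from a 2.73-fold fall to a rise. PRPF4, which sits with PRPF3 on U4/U6, had 9.37, 9.42 and 9.20 in T24/THP, against 10.60, 10.87 and 10.87 in T24 (adjusted p of 2.89e-05). PRPF3, in contrast, was at 8.19 ± 0.04 in T24/THP and 8.09 ± 0.17 in T24 (SD, n = 3 each), with an adjusted p of 0.469. PRPF19, the ubiquitin ligase at the core of the complex named after it, had 10.81, 10.89 and 10.69 in T24/THP, against 11.81, 12.29 and 12.32 in T24, 2.54-fold lower with an adjusted p of 0.000206. PRPF8, the U5 protein that cradles the catalytic RNA, had 13.89, 13.94 and 13.77 in T24/THP, against 14.51, 14.71 and 14.73 in T24 (difference −0.78). PRPF38A and PRPF31 fell, with differences of −0.56 and −0.47. PRPF6, the bridge between U5 and U4/U6, differed by −0.03 with an adjusted p of 0.864.

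PRPF4B, a kinase that phosphorylates tri-snRNP proteins and is now named PRP4K, rose. It had 9.12, 8.96 and 9.22 in T24/THP, against 8.51, 8.56 and 8.70 in T24, a difference of 0.51 with an adjusted p of 0.00275. PRPF38B and PRPF18, a second-step factor, did not pass, at differences of 0.16 and 0.05. Of the 10 genes of this class 5 fell (50%) and 1 rose (10%), with a median difference of −0.25. Of genes above the background range in at least 1 line 37.4% fell and 26.8% rose, with a median of −0.08. By its count of falls the class stood near such genes.

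The SR genes went both ways. Of 11 genes 3 rose and 3 fell (27.3% each), with a median difference of −0.07. Of genes above the background range in at least 1 line 26.8% rose and 37.4% fell, with a median of −0.08. By these counts the class did not stand out from such genes. SRSF5, an SR protein that promotes exon inclusion, had 14.46, 14.42 and 14.48 in T24/THP, against 12.53, 12.64 and 12.68 in T24. The 3 values of each line were close together and the lines nearly 2 log2 units apart, with a difference of 1.84 ± 0.0609 (SE), or 3.58-fold higher, and an adjusted p of 1.58e-06. The SRSF5 cluster spans 45106 bases of the array's annotation (the median over the members is 16042), and which exons it takes in was not checked. SRSF6 averaged 10.94 ± 0.06 in T24/THP and 10.39 ± 0.14 in T24 (SD, n = 3 each), 1.47-fold higher with an adjusted p of 0.00126. SRSF11 rose by 0.35 (adjusted p of 0.00295).

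Falls among SR genes were modest. SRSF3, the smallest family member, had 11.22, 11.30 and 11.35 in T24/THP, against 11.59, 11.91 and 11.85 in T24 (difference −0.49, adjusted p of 0.00455). SRSF1, the founding member and a known oncoprotein, had 13.38, 13.13 and 13.24 in T24/THP, against 13.47, 13.64 and 13.88 in T24. Its difference of −0.42 had an adjusted p of 0.0262, and this was 0.0726 with quantile normalization (−0.36) and 0.195 once a loess curve of difference on level was subtracted, the level trend (−0.23). It also missed the test without T24/THP replicate 2 or 3 (0.0894 and 0.075) or without T24 replicate 2 (0.0625). SRSF10, a splicing repressor when dephosphorylated, fell by 0.33 (adjusted p of 0.0591 with the level trend removed). Its value comes from an unlocalized contig of chromosome 1, and the dimmer cluster on the chromosome itself had 8.54, 8.43 and 8.51 in T24/THP, against 8.76, 8.90 and 8.75 in T24. SRSF4, SRSF7, SRSF8 and SRSF9 differed by −0.18 to 0.02 and did not pass, and SRSF12 was within the background range in both lines.

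The hnRNPs, the proteins that coat nascent transcripts, fell almost throughout. Of 18 genes 16 fell, 4 of them by at least 2-fold, and 1 rose, with a median difference of −0.67. Among genes above the background range in at least 1 line 37.4% fell, 8.8% by at least 2-fold, and 26.8% rose. HNRNPAB had 9.96, 10.10 and 9.90 in T24/THP, against 11.57, 11.90 and 11.77 in T24. It was 3.39-fold lower, with an adjusted p of 1.27e-05. HNRNPM, a regulator of exon skipping in mesenchymal transition, had 13.46, 13.43 and 13.25 in T24/THP, against 14.65, 14.84 and 14.70 in T24, 2.55-fold lower with an adjusted p of 1.81e-05. HNRNPR had 11.88, 11.93 and 11.89 in T24/THP, against 13.17, 13.28 and 13.20 in T24, 2.49-fold lower with an adjusted p of 4.42e-06. HNRNPUL2, a relative of HNRNPU, was 2.18-fold lower. HNRNPD, the AU-rich element binder AUF1, was 1.98-fold lower, with 10.81, 10.88 and 10.84 in T24/THP, against 11.88, 11.88 and 11.74 in T24.

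The classical core hnRNPs had smaller differences. HNRNPA1, which silences exons by spreading along RNA, had 15.87, 15.85 and 15.98 in T24/THP, against 16.45, 16.51 and 16.33 in T24 (difference −0.53, adjusted p of 0.000762). HNRNPC, which keeps cryptic exons shut, had 12.85, 12.99 and 13.02 in T24/THP, against 13.47, 13.60 and 13.35 in T24 (difference −0.52). HNRNPA2B1 had 12.38, 12.43 and 12.39 in T24/THP, against 12.86, 12.93 and 12.63 in T24. Its difference of −0.41 had an adjusted p of 0.00681, and 0.0726 with the level trend removed (−0.23). HNRNPL, HNRNPF, HNRNPA0 and HNRNPA3 fell, with differences of −0.84, −0.76, −0.69 and −0.66, as did HNRNPU, the nuclear scaffold protein, at −0.42 and HNRNPUL1 at −0.41. HNRNPA1L2 fell by 0.52, and as it is a near-copy of HNRNPA1 its probes may read the transcript of that gene.

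The H proteins, which bind runs of guanines, were divided. HNRNPH2 fell by 0.82, with 11.88, 11.92 and 12.32 in T24/THP, against 12.82, 12.77 and 13.00 in T24. HNRNPH1, its close paralog, was at 11.57, 11.48 and 11.52 in T24/THP, against 11.32, 11.38 and 11.19 in T24. That difference of 0.23 passed narrowly, with an adjusted p of 0.0389, and it missed the test when any array other than T24 replicate 2 was left out, with differences of 0.17 to 0.25. HNRNPH3 was at 10.41 ± 0.12 in T24/THP and 10.29 ± 0.05 in T24 (SD, n = 3 each), with an adjusted p of 0.29, or 0.039 with the level trend removed.

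Other genes of the splicing pathway, outside the name rule, leaned the same way. Of 180 such genes on 7 lists 88 fell and 27 rose, with a median difference of −0.26. Of all genes tested 18% fell and 15.1% rose, and of genes above the background range in at least 1 line 37.4% and 26.8%. Of the 180 genes, 22 lay in the background range in both lines. Of 18 genes for the assembly of Sm rings, by the SMN complex and the methylosome, 12 fell and 0 rose. GEMIN5, which recognises the small nuclear RNAs for the SMN complex, had a difference of −1.71, and WDR77, the partner of the methyltransferase PRMT5, one of −1.29. Of 27 further particle proteins 18 fell and 3 rose, among the falls the U5 proteins SNRNP40 at −1.21 and EFTUD2 at −1.16. Of 32 proteins of the PRPF19 complex, later stages and helicases 15 fell and 4 rose. Their share of falls was nearer to 37.4% than those of the assembly and particle lists. BUD13, of the retention and splicing complex, had a difference of −1.47 and the isomerase PPIL1 one of −1.25.

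Of 22 exon junction and export proteins 16 fell and 3 rose. ALYREF, an adaptor for mRNA export, had a difference of −1.65 and the helicase DDX39A one of −1.14. Proteins of the minor spliceosome went both ways, with 3 lower and 2 higher of 10. Both shares were under those of genes above the background range (37.4% lower and 26.8% higher). SNRNP25 was at least 1.68-fold lower and RNPC3, which binds U12 RNA, at least 1.36-fold higher. Among 50 other regulators of alternative splicing 19 fell and 9 rose, against 18% and 15.1% of all genes tested. As 15 of the 50 lay in the background range in both lines, their share is not set against that 37.4%. RBM3, a cold-induced RNA-binding protein, had a difference of −1.72, while TIA1, which helps U1 at weak splice sites, rose by 1.29 and RBM39, a U2AF-related protein, by 1.21.

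SR-related proteins and the kinases of SR proteins were split as well, with 6 higher and 5 lower of 21. Of genes above the background range 26.8% were higher and 37.4% lower, so this list did not lean lower. CLK1, a nuclear kinase that phosphorylates SR proteins, had 10.50 ± 0.17 in T24/THP and 9.06 ± 0.16 in T24 (SD, n = 3 each). It was 2.72-fold higher, with an adjusted p of 4.96e-05, and was the 1 gene of that list to pass with a 2-fold difference. Proliferation genes moved with the splicing genes. All 24 fell, 23 of them by at least 2-fold, with a median difference of −1.97. Their part in the fall of the splicing genes was not tested.

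**Figure D4:**
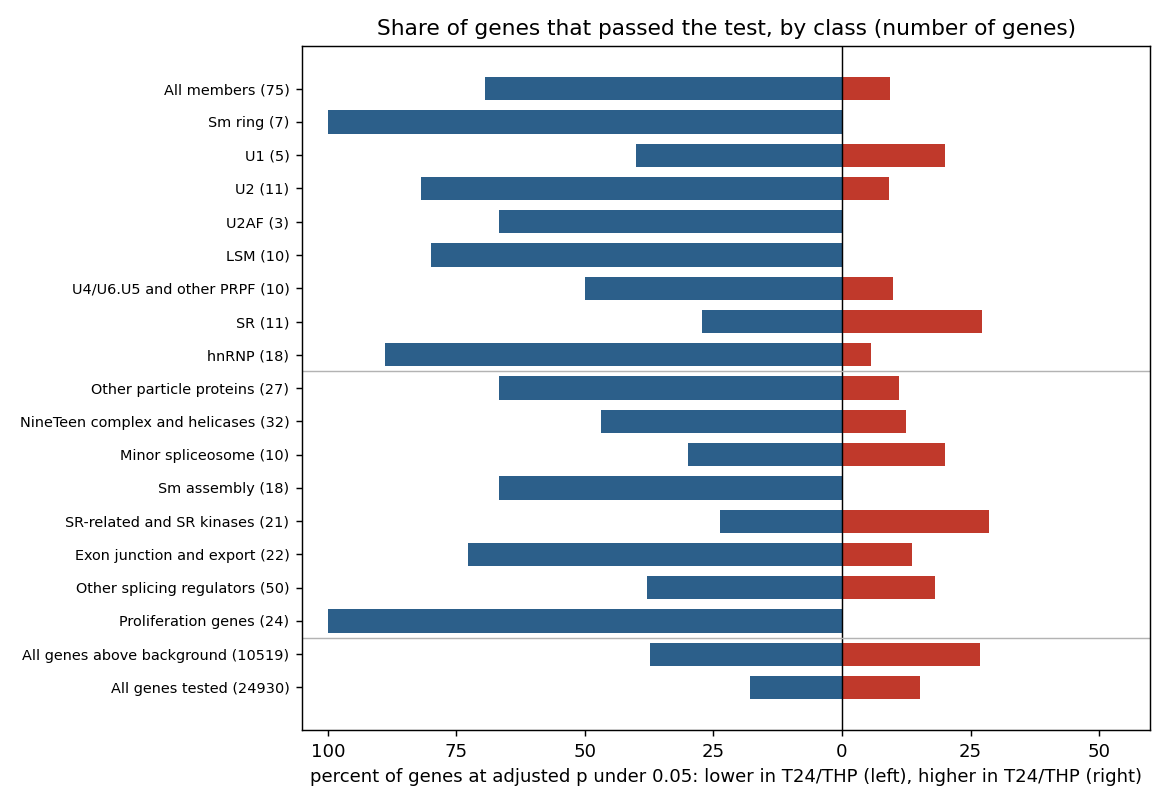
Percent of the genes of each class that passed at an adjusted p under 0.05, lower in T24/THP to the left and higher in T24/THP to the right, with the number of genes in brackets. The bar of the Sm ring reaches 100% on the left, the SR class is even on the sides, and the last bars give all genes.

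Array medians were between 3.71 and 3.79 log2 units. Arrays of the same line correlated at 0.997 to 0.998 (Pearson, across genes, which are not independent) and arrays of different lines at 0.977 to 0.981. Precision is limited by there being 3 arrays for each line. Of the markers of a bladder epithelium, 13 of 14 urothelial, basal and luminal genes lay in the background range in both lines, uroplakins, GATA3, KRT5 and KRT20 among them, with CD44 the exception. Of 6 epithelial genes, the simple keratins KRT7, KRT8 and KRT18 were above that range in both lines. KRT19, EPCAM and CDH1 lay within it in both. Of 6 mesenchymal genes, VIM, CDH2, FN1 and ZEB1 were above it in both lines, and ZEB2 and TWIST1 lay within it. All 9 leukocyte and 5 fibroblast markers, and 4 of 5 endothelial ones, lay in the background range in both lines, CDH5 being the endothelial gene above it. In GRCh37, the build named in the annotated table, SRSF5 (TC14000418.hg.1) lies at chr14:70193617-70238722, HNRNPAB (TC05001033.hg.1) at chr5:177631508-177638184, SNRPD1 (TC18000088.hg.1) at chr18:19192260-19210208, PRPF4 (TC09000573.hg.1) at chr9:116037623-116055466, SNRPA (TC19000567.hg.1) at chr19:41256759-41271297 and SF3B1 (TC02002647.hg.1) at chr2:198256698-198299815.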

How the data were processed

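The deposited values are log2 intensities from Affymetrix whole-transcript arrays. The authors made them with Affymetrix Expression Console, per the submitters' processing notes; the sources used here give neither its version nor its algorithm. Per the labels' protocols, total RNA was column-purified, treated with DNase, amplified and biotin-labelled. Of 65854 transcript clusters, the 26515 with 1 symbol were kept, and symbols were updated through RefSeq (GRCh38.p14, names only). Each gene took its cluster with the highest mean, which gave 24930 genes, with no filter on low values.

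The lines were compared with limma 3.58.1 (R 4.3.3), using lmFit and eBayes without covariates, and p-values were adjusted over the 24930 genes by Benjamini-Hochberg. The code was tested on simulated arrays. The background range ends at the brightest of 23 background control probe sets, averaged within each line: 5.51 in T24/THP and 5.54 in T24. Where a gene lies under it in only 1 line, its fold is a lower bound.

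Genes named are the 12 members with the largest falls, the 7 that rose, 9 well-known members, the extremes of each class, and up to 2 genes in each direction of each further list that passed with a 2-fold difference. Other members complete their class. The members, classes and lists were chosen with earlier results of these data known. Some items that this rule names are not reported here.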

Additional observations from a re-analysis of the deposited data

How the results depend on the processing

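The counts of members that passed held under each alternative run: 48 to 52 fell and 7 or 8 rose with quantile normalization, an offset of 32, a filter on low values, the mean of a gene's clusters, eBayes with trend and robust settings, the series matrix values and the level trend removed. The median difference of −0.52 became −0.39 with the level trend removed. The 11 falls of at least 2-fold became 8 with the level trend removed and 5 in a test against a 2-fold difference itself, while SRSF5 kept its call. Without each array in turn, 50 to 52 members fell, 6 or 7 rose, 11 or 12 fell by 2-fold, 1 rose by 2-fold, and the median lay between −0.54 and −0.48. With the replicate number as a block 52 fell, 6 rose and 11 fell by 2-fold, and HNRNPH1 missed the test (adjusted p of 0.0699). Deviations of same-numbered samples from the line means correlated at 0.040, 0.151 and 0.019, so the numbers were not taken as pairs. HNRNPU turned from −0.42 to 0.48 when its clusters were averaged, since that mean takes in the cluster named HNRNPU-AS1. The array number limits precision, and for the 4 members in the background range in both lines no fold or bound is given. Running these alternatives for members beyond those the naming rule picks was chosen after seeing the data.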

Other observations

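A neighbour of HNRNPU that the name rule left out went the other way. The cluster named HNRNPU-AS1 (TC01006390.hg.1), at chr1:245003940-245010243 in GRCh37, is annotated on the minus strand, the strand of HNRNPU itself, and begins after a gap of 3358 bases from the end of the HNRNPU cluster in the direction of transcription. RefSeq lists its name as a synonym of HNRNPU. It had 10.72, 10.21 and 10.59 log2 units in T24/THP, against 8.96, 9.04 and 9.39 in T24, a difference of 1.38, while HNRNPU had 12.17, 12.25 and 12.22 in T24/THP, against 12.59, 12.74 and 12.58 in T24. The lines did not overlap for either cluster, and of all genes tested 23.2% lay apart as lower and 22% as higher. An exact two-sided permutation test gave 0.1 for each, the smallest p that 3 arrays against 3 allow. Arrays that do not overlap always give that p, so it adds nothing to the values.

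Of hnRNP genes that the array lists under older symbols, HNRNPLL (HNRPLL in the file), a regulator of CD45 splicing in lymphocytes, had 6.35, 6.56 and 6.32 in T24/THP, against 5.18, 5.05 and 5.19 in T24, where it lay in the background range. It was at least 1.83-fold higher in T24/THP (adjusted p of 2.52e-05 in limma's fit). HNRNPDL (HNRPDL in the file), a relative of HNRNPD, had 12.17, 12.15 and 12.26 in T24/THP, against 12.77, 12.76 and 12.66 in T24, a fall of 0.54 with an adjusted p of 0.000334.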
